A study of Mus musculus with 6 samples.

Results

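The genes described here encode the laminins, nidogens and heparan sulfate proteoglycans of the basement membrane: the laminin chain genes Lama1, Lama2, Lama4, Lama5, Lamb1 and Lamc1, the nidogen genes Nid1 and Nid2, the perlecan gene Hspg2 and the agrin gene Agrn. They were taken by symbol from the deposited gene table, and all 10 were present among its 14366 genes. The study measured polyadenylated RNA by sequencing in male mouse mesonephroi at embryonic day 16.5, a tissue that holds the Wolffian duct, its mesenchyme and, in this dissection, the mesonephric tubule region. The 3 control samples were of genotype Osr2Cre+;Gata2-flox/+ and the 3 Gata2cKO samples of genotype Osr2Cre+;Gata2-flox/flox, so that both groups carried the Osr2-Cre recombinase and at least 1 floxed Gata2 allele. The comparison addresses the role of mesenchymal Gata2, a zinc finger transcription factor gene, in development of the duct. Cells that never expressed Osr2-Cre keep Gata2 in either genotype, and nothing in the labels ties a sample to its own embryo or litter. The p-values therefore reflect only how these samples vary, which may be technical in part.

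The basement membrane is a thin sheet of matrix under epithelia and around blood vessels, nerves and muscle cells. Laminins are trimers of an alpha, a beta and a gamma chain that bind integrins and dystroglycan on the cell surface and assemble into a network. Nidogens bridge that network to type IV collagen, and perlecan and agrin carry heparan sulfate chains that bind growth factors. In the developing urogenital ducts this sheet separates the epithelium from the mesenchyme that surrounds it.

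The libraries differed in composition. Values were given as TPM, a measure of transcript abundance corrected for the length of the gene and the size of the library, so levels can be compared between genes, and read depth is unknown. The share of TPM from mitochondrially encoded transcripts was 21.9% in control replicate 1 and between 13.2% and 16.3% in the other 5 libraries, and control replicate 1 is given with and without where a result rests on it. Gata2 itself was at 465 ± 81.2 TPM in controls and 459 ± 61.9 TPM in Gata2cKO (SD, n = 3 each, limma adjusted p = 0.968). That value sums all exons and does not check the labels, on which every direction below rests. Among the markers of cell types that make basement membrane, those of duct epithelium summed to between 1091 and 1208 TPM in controls and between 1422 and 1453 TPM in Gata2cKO. Fewer cells of a type and less RNA per cell cannot be told apart in these bulk samples.

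Levels of the 10 genes spanned about 2 orders of magnitude on the TPM scale. Agrn was the most abundant at 172 ± 12.9 TPM in controls (SD, n = 3), above 94.1% of the 12300 genes tested. Lamb1 (63.0 ± 4.22 TPM), Hspg2 (53.8 ± 10.9 TPM), Nid1 (52.5 ± 1.42 TPM), Lama5 (43.6 ± 7.91 TPM) and Nid2 (43.0 ± 8.86 TPM) followed, and neighbours in that order overlapped between control libraries. Lamc1 (23.9 ± 0.515 TPM), Lama4 (8.66 ± 0.419 TPM), Lama1 (7.04 ± 0.533 TPM) and Lama2 (1.67 ± 0.0623 TPM) were lower, each below the range of the gene before it. In Gata2cKO the order was the same except that Nid2 (56.7 ± 5.50 TPM) came before Nid1 (52.3 ± 4.06 TPM) and Lama5 (50.7 ± 3.69 TPM). All 10 passed the filter on low values, which asked 3 or more of the 6 libraries to reach 1 TPM.

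The genes are long. Their longest coding transcripts ran from 4876 nucleotides (Nid2) to 14187 nucleotides (Hspg2), with a median of 7442, against a median of 3097 over the tested genes with a transcript length. Lamb1 lies on chromosome 12 from 31265234 to 31329644 and Lamc1 on chromosome 1 from 153218922 to 153332786 (GRCm38, GENCODE release M21). Lama4 lies on chromosome 10 from 38965515 to 39110188, and all 10 are annotated as protein-coding. Nid2, on chromosome 14 from 19751265 to 19811787, overlaps 2700060E02Rik on the opposite strand. That gene was at 108 ± 13.6 TPM in controls and 112 ± 12.9 TPM in Gata2cKO. Any reads from sequence that both genes share cannot be told apart without strand information. Whole gene spans were compared here, so an overlap of their exons was not examined.

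The RefSeq promoter table (GRCm38.p6) held entries for 6 of the 10 genes: Agrn, Hspg2, Lama2, Lama5, Lamb1 and Nid1. The stretch from 250 to 61 bases before the RefSeq start, which for both genes shown lies downstream of the GENCODE start, is shown for Lamb1, which rose in Gata2cKO, and for Nid1, whose level was nearly the same in both groups. Capitals mark the letters GATA on either strand (GATA or TATC), the core that GATA factors recognize. The Lamb1 stretch is chr12:31265043-31265232 and the Nid1 stretch is chr13:13437352-13437541, both on the plus strand.
Lamb1: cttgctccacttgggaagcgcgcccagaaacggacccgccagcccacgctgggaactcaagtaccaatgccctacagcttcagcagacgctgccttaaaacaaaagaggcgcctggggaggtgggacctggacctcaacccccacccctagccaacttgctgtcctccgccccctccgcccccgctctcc
Nid1: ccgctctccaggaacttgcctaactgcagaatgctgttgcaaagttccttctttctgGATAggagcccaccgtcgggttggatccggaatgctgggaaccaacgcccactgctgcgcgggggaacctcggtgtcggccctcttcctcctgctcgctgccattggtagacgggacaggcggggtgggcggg
GATA was found 0 times in the Lamb1 stretch and 1 time in the Nid1 stretch. Of 32817 promoter stretches of this length, 47.0% held it, so the letters are common. A match or its lack in this window is a description of the sequence only, and other parts of the loci were not searched.

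Of the 10 genes, 3 laminin chain genes rose in Gata2cKO and none fell at a limma adjusted p under 0.05: Lamc1, Lamb1 and Lama4. Each rose by about 1.3-fold. Over all 12300 tested genes 5.73% were called higher, 1.74% lower and 7.47% in either direction by this test, so that 76.7% of the calls were higher, against 54.9% with median-of-ratios scaling. The groups of 4 of the 10 genes did not overlap, all 4 with Gata2cKO above. This held for 23.4% of all tested genes, against 10.5% with Gata2cKO below and 33.9% either way. The same 4, which add Nid2, had an unadjusted p under 0.05, as did 27.4% of all tested genes. In the authors' deposited table the same 3 of 10 had an adjusted p under 0.05, all higher, where 6.69% of all listed genes were higher, 6.58% lower and 13.3% either. The median log2 fold change was 0.17 over the 10 genes and 0.05 over all tested genes. The value was positive for 8 of the 10 and for 7321 of the 12300 tested genes. These 3 calls lay close to the threshold and are not firm: with the 5 removals of a library other than control replicate 1, all 3 were lost (0 of 10 genes called, and 116 to 274 of all genes).

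**Figure D1:**
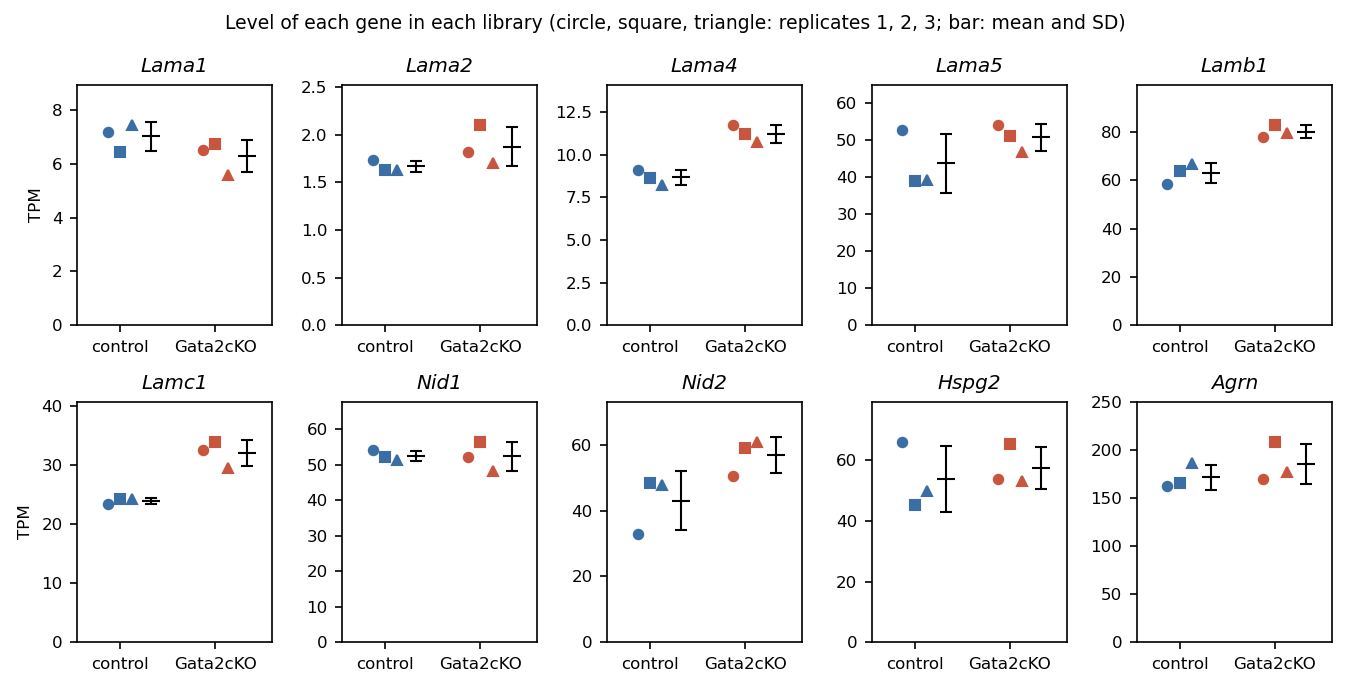
Level of each of the 10 genes in TPM (vertical axes, each from 0) in the 3 control (blue) and 3 Gata2cKO (red) libraries, with the mean and SD as a bar. Lama4, Lamb1, Lamc1 and Nid2 have all Gata2cKO libraries above all controls, and control replicate 1 (circle) stands apart from the other controls for Lama5, Nid2 and Hspg2.

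Lamc1 encodes the gamma 1 chain, which is part of most laminin trimers. It was at 23.3, 24.2 and 24.3 TPM in control replicates 1, 2 and 3 and at 32.6, 33.9 and 29.5 TPM in Gata2cKO replicates 1, 2 and 3. Every Gata2cKO library lay above every control. The ratio of mean TPM was 1.34 and the log2 fold change 0.40 (SE 0.08, 95% interval 0.21 to 0.59, limma adjusted p = 0.0309). The authors' deposited table gives Lamc1 a log2 fold change of 0.36 with an adjusted p of 0.000412.

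Lamb1 encodes the beta 1 chain, the usual partner of gamma 1 in embryonic laminins. Its control values were 58.4, 63.9 and 66.6 TPM and its Gata2cKO values 77.7, 83.0 and 79.6 TPM, again without overlap. The ratio of means was 1.27 and the log2 fold change 0.34 (SE 0.08, 95% interval 0.16 to 0.53, limma adjusted p = 0.0451). The authors' deposited table gives Lamb1 a log2 fold change of 0.29 with an adjusted p of 0.0116. The log2 ratio of Lamb1 to Lamc1 was 1.39 ± 0.0681 in controls and 1.33 ± 0.0938 in Gata2cKO (SD, n = 3 each), and the groups overlapped (two-sided exact permutation p = 0.40, where 0.10 is the smallest possible).

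The alpha chain gives a laminin its tissue type, and 1 of the 4 alpha chain genes passed the threshold. Lama4, whose chain is known from vessel walls, muscle and fat, was at 9.08, 8.66 and 8.24 TPM in controls and 11.8, 11.2 and 10.7 TPM in Gata2cKO. The groups did not overlap, with a ratio of means of 1.30 and a log2 fold change of 0.34 (SE 0.08, 95% interval 0.15 to 0.53, limma adjusted p = 0.0482). The authors' deposited table gives Lama4 a log2 fold change of 0.31 with an adjusted p of 0.00825. Markers of endothelium, a known source of Lama4, summed to between 323 and 424 TPM in controls and between 459 and 557 TPM in Gata2cKO. Of these 9 markers 3 rose, none fell and 6 did not pass, where 5.73% of all tested genes were called higher. The log2 fold change was positive for 8 of the markers and negative for 1, where it was positive for 7321 of the 12300 tested genes. The part of these markers in the Lama4 result was not tested.

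Lama5 encodes the alpha 5 chain of most mature epithelial and vascular basement membranes. It was at 52.8, 38.9 and 39.2 TPM in controls and at 54.1, 51.1 and 46.8 TPM in Gata2cKO. Control replicate 1 lay among the Gata2cKO libraries and the other controls lay below all of them. The log2 fold change was 0.22 (SE 0.13, 95% interval -0.08 to 0.52) and did not pass (limma adjusted p = 0.310). Without control replicate 1 it was 0.36 and passed (limma adjusted p = 0.0359), in a fit that called 12.5% of all genes.

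Lama1 encodes the alpha 1 chain of early embryonic epithelia, including those of the developing kidney. Its values were 7.20, 6.45 and 7.47 TPM in controls and 6.51, 6.74 and 5.61 TPM in Gata2cKO, and the groups overlapped. The log2 fold change was -0.14 (SE 0.10, 95% interval -0.37 to 0.09, limma adjusted p = 0.388). Lama2 encodes the alpha 2 chain of muscle and peripheral nerve, whose loss causes a muscular dystrophy. It stayed low in every library, at 1.74, 1.63 and 1.63 TPM in controls and 1.82, 2.11 and 1.70 TPM in Gata2cKO, with a log2 fold change of 0.11 (SE 0.09, limma adjusted p = 0.490). Of the skeletal muscle markers only the actin gene Acta1 passed the filter, at 9.30 TPM in control replicate 1 and between 0.324 and 1.94 TPM in the other 5 libraries.

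Shares within a library do not depend on how libraries are scaled. Of the summed TPM of the 4 alpha chain genes, Lama5 made up 71.3% ± 2.85 in controls and 72.3% ± 0.558 in Gata2cKO (SD, n = 3 each). The share of Lama1 was 10.2%, 11.6% and 13.2% in controls and 8.77%, 9.48% and 8.66% in Gata2cKO, lower in every Gata2cKO library. That of Lama4 was 12.8%, 15.6% and 14.6% against 15.8%, 15.7% and 16.5%, higher in every Gata2cKO library. Both differences, of -2.69 and 1.72 percentage points, had the smallest p that 3 against 3 libraries allow (two-sided exact permutation p = 0.10, adjusted p = 0.20 over the 8 shares and ratios computed), so they could not pass 0.05. The difference for Lama4 was 0.977 percentage points without control replicate 1. The share of Lama2 was 2.76% ± 0.262 and 2.68% ± 0.260 (exact permutation p = 0.90).

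**Figure D2:**
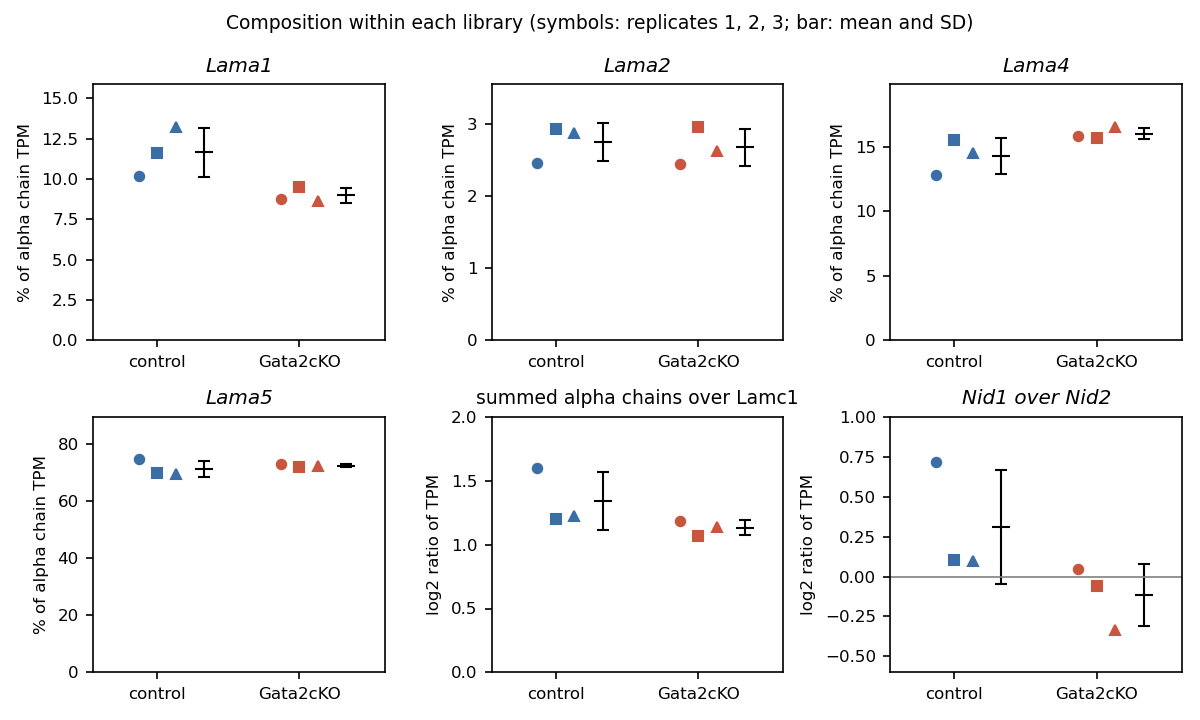
Share of each alpha chain gene in the summed TPM of Lama1, Lama2, Lama4 and Lama5 (percent), log2 ratio of the summed alpha chains to Lamc1 and log2 ratio of Nid1 to Nid2, in each library, with mean and SD as a bar. The Lama1 share is lower and the Lama4 share is higher in all 3 Gata2cKO libraries than in all 3 controls, and control replicate 1 (circle) is apart in both ratios.

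Summed alpha chains exceeded Lamc1 by a log2 ratio of 1.34 ± 0.225 in controls and 1.13 ± 0.0590 in Gata2cKO, a difference of -0.21 (two-sided exact permutation p = 0.10, adjusted p = 0.20), and of -0.08 without control replicate 1. Among other laminin chain genes, Lamb2, which encodes the beta 2 chain of mature and synaptic laminins, was more abundant than Lamb1. It was at 208, 235 and 242 TPM in controls and at 217, 246 and 199 TPM in Gata2cKO (log2 fold change -0.05, SE 0.11, limma adjusted p = 0.781). Lamc3, a gamma chain of restricted distribution, had 2.30 ± 0.325 TPM in controls and 2.93 ± 0.872 TPM in Gata2cKO and missed the threshold. Lama3 and Lamb3, which encode chains of epithelial laminin, stayed below 1 TPM in every library and were not tested.

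The nidogens link laminin to collagen IV, and their 2 genes showed different values. Nid1 was at 54.1, 52.1 and 51.3 TPM in controls and at 52.2, 56.4 and 48.3 TPM in Gata2cKO. Its groups overlapped and its log2 fold change was -0.01 (SE 0.08, 95% interval -0.20 to 0.19, limma adjusted p = 0.970). Nid2 was at 32.8, 48.5 and 47.8 TPM in controls and at 50.5, 58.9 and 60.8 TPM in Gata2cKO, with every Gata2cKO library above every control. Its log2 fold change of 0.41 was the highest of the 10 genes, with Lamc1 close at 0.40, and did not pass (SE 0.16, 95% interval 0.04 to 0.77, limma adjusted p = 0.148). Control replicate 1 was far below the other controls. Without that library the Nid2 log2 fold change was 0.23 and did not pass either (limma adjusted p = 0.152). The authors' deposited table gives Nid2 a log2 fold change of 0.34 with an adjusted p of 0.0972.

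The log2 ratio of Nid1 to Nid2 was 0.72, 0.10 and 0.10 in controls and 0.05, -0.06 and -0.33 in Gata2cKO. The groups did not overlap, and the difference of -0.42 had the smallest p this design allows (two-sided exact permutation p = 0.10, adjusted p = 0.20). It was -0.22 without control replicate 1.

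Neither heparan sulfate proteoglycan gene passed. Hspg2, which encodes perlecan, was at 66.1, 45.3 and 49.9 TPM in controls and at 53.9, 65.5 and 53.2 TPM in Gata2cKO. The highest value of all was in control replicate 1, and the log2 fold change was 0.11 (SE 0.15, 95% interval -0.24 to 0.46, limma adjusted p = 0.684). Without that library it was 0.26 and did not pass either (limma adjusted p = 0.147). Agrn, which encodes agrin, the organizer of the neuromuscular synapse that is also found in epithelial and vascular basement membranes, was at 163, 166 and 187 TPM in controls and at 169.7, 209 and 178 TPM in Gata2cKO. Its groups overlapped (log2 fold change 0.11, SE 0.10, 95% interval -0.13 to 0.35, limma adjusted p = 0.548). The log2 ratio of Hspg2 to Agrn was -1.69 ± 0.338 in controls and -1.69 ± 0.0458 in Gata2cKO (SD, n = 3 each; exact permutation p = 1), with the spread in controls set by replicate 1, at -1.30.

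**Figure D3:**
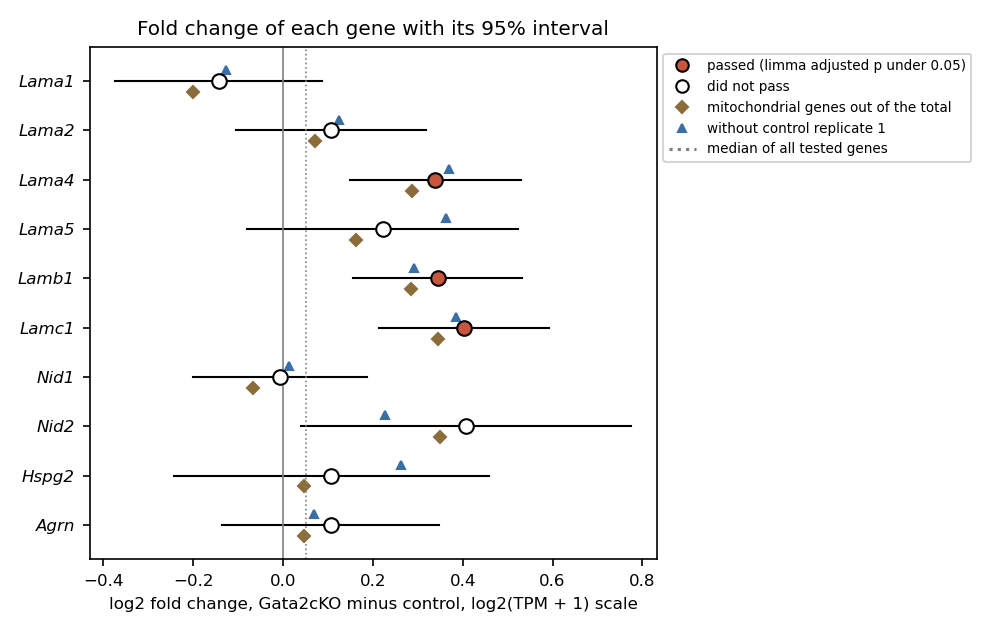
Log2 fold change of each gene (horizontal axis, log2(TPM + 1) scale) with its 95% interval from limma, filled where the adjusted p was under 0.05, and the estimates without mitochondrially encoded genes in the total (diamonds) and without control replicate 1 (triangles). Lama4, Lamb1 and Lamc1 lie between 0.34 and 0.40, and the estimates of Lama5, Nid2 and Hspg2 move most when control replicate 1 is left out.

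The calls for Lamc1, Lamb1 and Lama4 moved with the scaling of the libraries. With mitochondrially encoded genes taken out of each library's total, their log2 fold changes were 0.35, 0.28 and 0.29 and none passed (limma adjusted p = 0.0539, 0.0514 and 0.133). With median-of-ratios scaling, which moved the all-gene median from 0.05 to -0.0033 on the log2 scale, Lamc1 kept its call (adjusted p = 0.0351), while Lamb1 and Lama4 did not (adjusted p = 0.0692 and 0.0744). All 3 calls stood without control replicate 1 (adjusted p = 0.0325, 0.0420 and 0.0350). They also stood, in an alternative chosen after seeing the data, with that library left out and mitochondrially encoded genes out of the total (adjusted p = 0.0346, 0.0433 and 0.0442). Their log2 fold changes stayed between 0.27 and 0.46 in each setting tried.

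**Figure D4:**
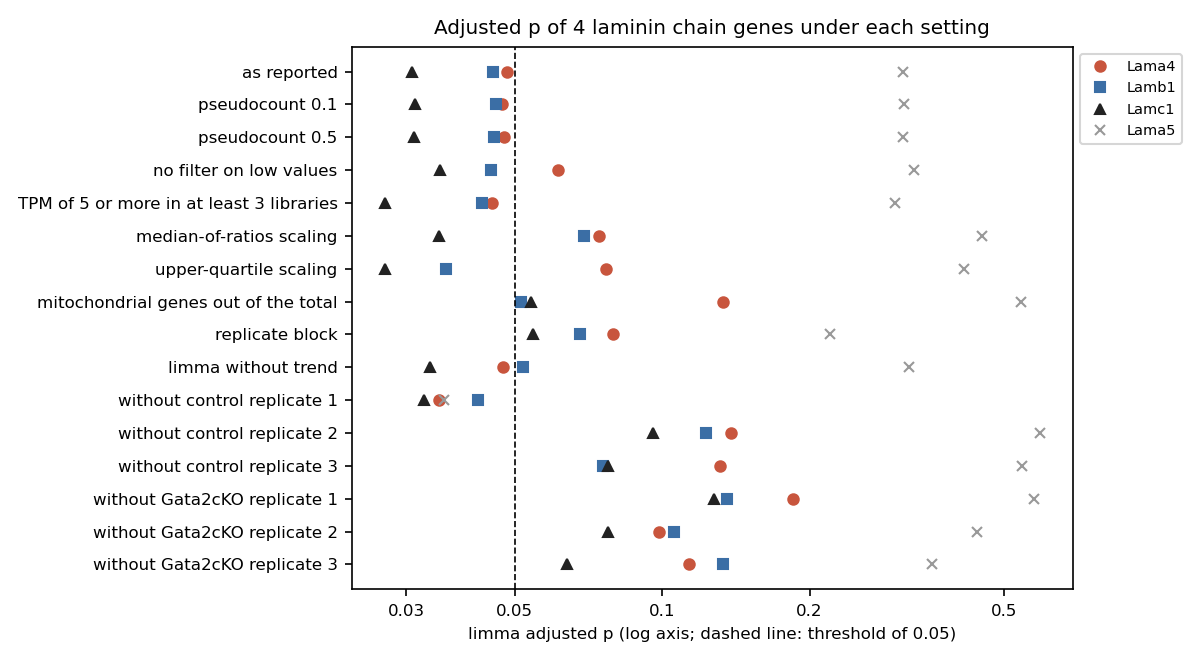
Limma adjusted p (horizontal log axis) of Lama4, Lamb1, Lamc1 and Lama5 as reported and under each alternative setting, with the threshold of 0.05 dashed. The first 3 genes lie close to the threshold, all 3 are past it without control replicate 1 and none is when any other library is left out.

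By the distance between centred log2 profiles over the 6 libraries, the 3 genes outside the group most like Lamc1, among 9243 genes with a mean of 5 TPM or more, were Mest, Aco1 and Ubn1. Mest encodes an imprinted mesodermal protein, Aco1 the cytosolic aconitase and Ubn1 a histone chaperone subunit. Their root mean square differences from Lamc1 were 0.0268, 0.0287 and 0.0333 on the log2 scale. Mest rose from a mean of 246 to 326 TPM, with a log2 fold change of 0.41 (limma adjusted p = 0.0272). It was picked for likeness to Lamc1 over these same libraries, so a fold change close to that of Lamc1 follows from the choice. Of the other 9 basement membrane genes, Lamb1 was nearest to Lamc1, with a difference of 0.0716, and ranked 112 among the candidates.

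Most tested genes for receptors that bind laminins were called higher. Of 8 tested receptor genes 6 rose, none fell and 2 did not pass, where 5.73% of all tested genes were called higher. All 8 log2 fold changes were positive, where those of 7321 of the 12300 tested genes were. The median of the 8 was 0.53, where that of all tested genes was 0.05. Itgb1, the beta 1 integrin subunit shared by most laminin-binding integrins, was at 97.4, 112 and 103 TPM in controls and at 161, 144 and 159 TPM in Gata2cKO (log2 fold change 0.57, limma adjusted p = 0.0149). Dag1, which encodes dystroglycan, was at 25.3, 26.4 and 26.4 TPM in controls and 37.3, 41.0 and 38.0 TPM in Gata2cKO (log2 fold change 0.55, limma adjusted p = 0.0116). The groups of neither gene overlapped.

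The alpha integrin genes Itga7 and Itga3, whose products pair with beta 1, both rose, Itga7 from 2.84 ± 0.202 to 5.35 ± 0.576 TPM and Itga3 from 23.7 ± 1.75 to 33.9 ± 1.79 TPM (SD, n = 3 each), with limma adjusted p of 0.0117 and 0.0198. Bcam, the most abundant of the receptor genes and a surface receptor for the alpha 5 chain, rose from 152 ± 20.3 to 228 ± 16.3 TPM (limma adjusted p = 0.0284). The other gene that rose was Itga6, from 5.02 ± 0.179 to 7.06 ± 0.300 TPM, and it is named here because its value had been seen. Leaving out Gata2cKO replicate 1 took this count of 6 to 0, leaving out replicate 2 took it to 3 and leaving out replicate 3 took it to 2. Over all genes those fits called 0.943%, 1.87% and 1.67% in either direction. The receptor count was 4 without control replicate 2 or 3, 6 without control replicate 1, and 5 with mitochondrially encoded genes out of the total. The all-gene shares in either direction were 2.11%, 2.23%, 12.5% and 5.81% there. Markers of duct epithelium, endothelium and mesothelium, cells that carry these receptors, also had higher sums in Gata2cKO, and their part in the receptor values was not tested.

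Some collagens of the basement membrane also rose. Of 9 tested genes 3 rose and none fell, with a median log2 fold change of 0.22. Over all tested genes 5.73% were called higher and 1.74% lower. Col4a1, one of the main chains of the collagen IV network, rose from 83.7 ± 1.35 to 120 ± 14.5 TPM (SD, n = 3 each), with a limma adjusted p of 0.0276. Its partner Col4a2 had 41.6 ± 1.998 TPM in controls and 55.6 ± 7.45 TPM in Gata2cKO and missed the threshold (adjusted p = 0.0616). Col18a1, whose product yields endostatin, rose from 45.7 ± 4.66 to 64.1 ± 2.88 TPM (adjusted p = 0.0284), and Col15a1, a collagen of vascular and muscle basement membranes, from 11.7 ± 1.13 to 26.4 ± 2.91 TPM (adjusted p = 0.00549). The count of 3 was 3 without control replicate 1 (where 1 also fell), 2 without control replicate 3 and 1 without control replicate 2 or any 1 Gata2cKO library. Over all genes 12.5% passed in either direction without control replicate 1, and between 0.943% and 2.23% without any other library. Only Col15a1 of the 3 collagen genes that rose passed in all 6 removals.

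Other basement membrane proteins went both ways, with 4 of 15 tested genes that rose, 1 that fell and a median log2 fold change of 0.26. The shares over all tested genes were 5.73% higher and 1.74% lower. Frem2, which anchors epithelium to mesenchyme in the Fraser complex, rose from 6.84 ± 0.470 to 14.3 ± 0.839 TPM (limma adjusted p = 0.00362). Npnt, which encodes the integrin ligand nephronectin, rose from 13.2 ± 0.966 to 21.7 ± 1.48 TPM, and Vwa1, which encodes a perlecan-binding protein, from 15.0 ± 1.93 to 23.4 ± 2.49 TPM (adjusted p = 0.0116 and 0.0276). Smoc2, a SPARC-related matricellular gene, fell from 41.1 ± 1.84 to 26.4 ± 0.722 TPM (adjusted p = 0.00971). Sparc, the most abundant of these genes, had 624 ± 64.6 TPM in controls and 715 ± 63.3 TPM in Gata2cKO, which missed the threshold. Frem2 and Smoc2 kept their calls in all 6 removals of a library, Npnt in 5 and Vwa1 in 1. The count of 4 that rose was 5 without control replicate 1, 1 without Gata2cKO replicate 1 and 2 without any of the other 4 libraries. Those fits called 12.5%, 0.943% and between 1.67% and 2.23% of all genes in either direction.

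Of 15 tested genes of heparan sulfate synthesis and editing 2 rose and none fell, where 7.47% of all tested genes passed in either direction, with a median log2 fold change of 0.11. Sulf1, an extracellular sulfatase that trims heparan sulfate, rose from 18.1 ± 1.38 to 25.6 ± 1.91 TPM, and Glce, the epimerase of the chain, from 4.18 ± 0.441 to 6.43 ± 0.543 TPM (limma adjusted p = 0.0284 each). Both calls were lost in the 5 removals of a library other than control replicate 1, where between 0.943% and 2.23% of all genes passed. Extl2 and Hs6st1 were at 11.9 ± 1.63 and 16.2 ± 1.23 TPM and at 16.4 ± 2.91 and 20.7 ± 2.42 TPM, and B3gat3, the most abundant, was at 88.0 ± 5.40 and 84.7 ± 7.11 TPM. None of these 3 passed.

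Of 11 tested genes that glycosylate dystroglycan, which gives it its laminin-binding sugar, none passed the limma threshold in either direction, and 2 had an unadjusted p under 0.05. Over all tested genes 7.47% passed and 27.4% had an unadjusted p under 0.05, and neither count says anything particular to this list. The 2 genes were Pomk, at 13.05 ± 1.497 and 16.7 ± 0.916 TPM, and Pomt2, at 9.42 ± 1.08 and 11.6 ± 0.450 TPM (adjusted p = 0.0851 and 0.126). Pomt1 was at 26.0 ± 2.63 and 21.9 ± 2.81 TPM and the most abundant, B4gat1, at 202 ± 46.1 and 214 ± 22.2 TPM. Lrp4, the agrin receptor gene, was the one gene of the agrin receptor complex that could be tested, at 7.72 ± 0.671 TPM in controls and 6.12 ± 0.910 TPM in Gata2cKO (adjusted p = 0.147). Dok7 and Rapsn, which act with it at the muscle synapse, had means of 0.301 and 0.431 TPM in controls and of 0.255 and 1.08 TPM in Gata2cKO, and were not tested.

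**Figure D5:**
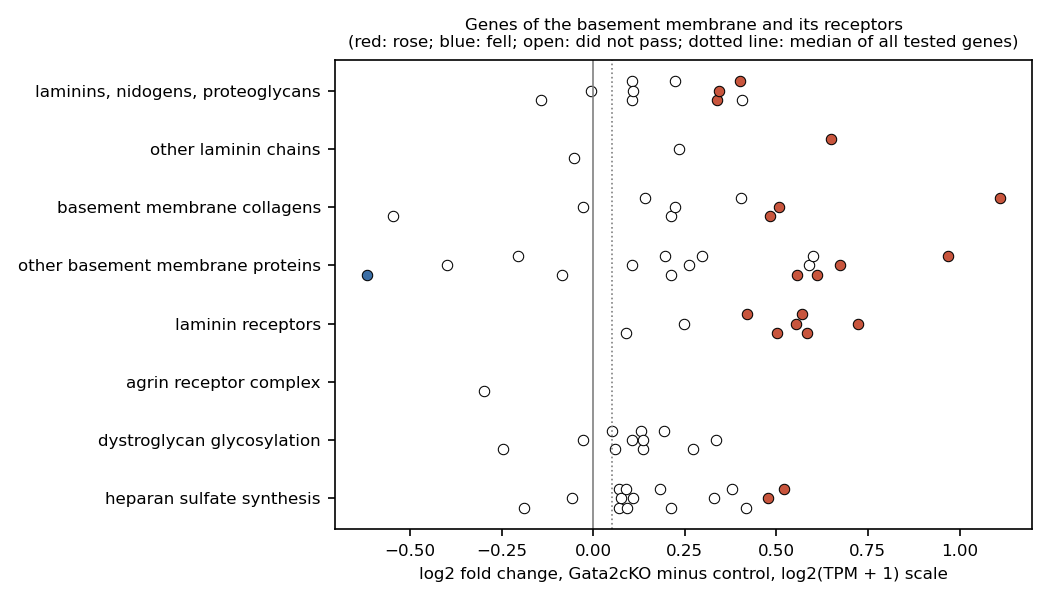
Log2 fold change of each tested gene (horizontal axis, log2(TPM + 1) scale), grouped by role, with genes that rose in red, genes that fell in blue and the others open. The receptor genes lie furthest to the right as a group, with 6 of 8 past the threshold, and the dystroglycan glycosylation genes lie nearer to the median of all genes, with 0 of 11.

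Cell types that deposit basement membrane differed in their marker levels between the groups. The marker counts in all 6 libraries stand beside 5.73% called higher and 1.74% called lower over all tested genes. Without control replicate 1 the all-gene share called in either direction was 12.5%. It was 2.11% and 2.23% without control replicates 2 and 3, and 0.943%, 1.87% and 1.67% without Gata2cKO replicates 1, 2 and 3. Mesothelial markers summed to between 294 and 374 TPM in controls and between 489 and 540 TPM in Gata2cKO, with 4 of 6 that rose. Lrrn4 went from 21.0 ± 1.27 to 44.0 ± 3.69 TPM and Upk3b, the most abundant, from 165 ± 24.9 to 279 ± 20.8 TPM (SD, n = 3 each), with limma adjusted p of 0.00340 and 0.0173. The count of 4 mesothelial markers held without control replicate 1. It was 3 without control replicate 3, 2 without control replicate 2 or Gata2cKO replicate 2 and 1 without Gata2cKO replicate 1 or 3. Of 12 duct epithelial markers 3 rose, with Cldn4 from 160.5 ± 6.40 to 243 ± 13.4 TPM (adjusted p = 0.0113), while the most abundant, Krt18, had 321 ± 20.1 and 349 ± 11.04 TPM and missed the threshold. Without control replicate 1 this epithelial count of 3 was 8. It was 2 without control replicate 3, 0 without Gata2cKO replicate 1 and 1 without any of the other 3 libraries. Of the endothelial markers Esam rose from 30.3 ± 0.973 to 44.3 ± 0.478 TPM (adjusted p = 0.0112), and the most abundant, Sox18, was at 165 ± 21.8 and 205 ± 15.1 TPM. Leaving out control replicate 1 took the endothelial count from 3 to 4, and leaving out Gata2cKO replicate 1 took it to 0. It was 1 when Gata2cKO replicate 3 was dropped and 2 when any of the other 3 libraries was.

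Muscle and mesenchymal markers gave other values, and their counts in all 6 libraries stand beside the same all-gene shares of 5.73% higher and 1.74% lower. With control replicate 1 left out, 12.5% of all genes passed in either direction. With any other library left out, between 0.943% and 2.23% did. Smooth muscle markers summed to between 1005 and 1114 TPM in controls and between 777 and 856 TPM in Gata2cKO, and 3 of 6 fell, among them Myh11 from 4.49 ± 0.783 to 1.85 ± 0.214 TPM and the most abundant, Myl9, from 355 ± 34.5 to 257 ± 14.2 TPM. Leaving out control replicate 1 left this count at 3, leaving out control replicate 2 took it to 2 and leaving out any of the other 4 libraries took it to 1. Pericyte markers, 0 of 5 of which passed, summed to between 136 and 153 TPM and between 181 and 191 TPM, with Kcnj8 at 84.7 ± 17.2 and 124 ± 4.59 TPM. Without control replicate 1, 2 of the 5 rose. In the mesenchymal list 1 of 7 rose and 2 fell, with Tcf21 from 766 ± 63.2 to 449 ± 15.2 TPM and the most abundant, Col1a1, at 4045 ± 659 and 4458 ± 951 TPM. Without control replicate 1 these counts were the same, and without any of the other 5 libraries 0 rose and 1 fell. Schwann and neural markers summed to between 7.64 and 12.1 TPM in controls and between 9.69 and 12.1 TPM in Gata2cKO, and 0 of 4 tested passed, with Sox10 at 0.863 ± 0.463 and 1.72 ± 0.359 TPM. Without control replicate 1, 1 of the 4 rose. Erythroid markers summed to 17207, 6276 and 7173 TPM in control replicates 1, 2 and 3 and to between 9755 and 12742 TPM in Gata2cKO, and 0 of 4 tested passed. That count rests on control replicate 1: without it 3 of 4 rose, where 12.5% of all genes passed in either direction. The median of all 4 was then 0.97 on the log2 scale, where it was 0.55 with that library. An alternative chosen after seeing the data also took mitochondrially encoded genes out of the total. It called 13.3% of all genes, and 4 of 4 tested erythroid markers rose. Among them Hbb-bt was at 603 ± 262 and 946 ± 76.5 TPM and Hba-a1 at 6096 ± 3229.9 and 6009 ± 969.8 TPM. The part of any of these cell types in the laminin and nidogen values was not tested.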

How the data were processed

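RNA-seq was carried out on 6 samples of mesonephros, 3 control and 3 Gata2cKO, grouped by their titles in the labels. The authors deposited 1 gene table with TPM per library (unit taken from the values, which sum to between 997351 and 998844 per library), their log2 fold change, and their p-value and adjusted p-value. STAR 2.7.11a, DESeq2, DESeq and GRCm38 appear without roles, per the submitters' processing notes. The quantifier and strand setting were not given in the sources used here. Read depth cannot be had from TPM, so no counting interval is given and replicate spread is the error. Columns were assigned through the library names in the labels.

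Genes with 1 TPM or more in at least 3 of 6 libraries (12300) were fitted on log2(TPM + 1) with limma 3.58.1 (R 4.3.3, limma-trend, two-sided), with Benjamini-Hochberg adjustment over all of them and a threshold of 0.05. A log2 fold change is the Gata2cKO mean less the control mean on that scale, which understates changes of low genes. Shares and ratios were compared with two-sided exact permutation tests. Positions are from GENCODE M21 (14345 of 14366 identifiers matched), promoters from RefSeq.

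The 10 genes, the lists and the tests were chosen with earlier results of these data known. Named are all 10 genes, Gata2, up to 4 genes of each partner list with the smallest p and the most abundant, the first and the most abundant of each cell type list, and the 3 genes most like Lamc1, except some genes that are not reported here. Alternatives covered pseudocount, filter, scaling, replicate block, trend and each library left out.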

Additional observations from a re-analysis of the deposited data

How the results depend on the processing

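The count of laminin, nidogen and proteoglycan genes that rose was 3 of 10 as reported and the count that fell was 0, in each setting run. The first was 3 with a pseudocount of 0.1 or 0.5 and with a filter at 5 TPM, 2 with no filter, with upper-quartile scaling or without the trend, 1 with median-of-ratios scaling and 0 with mitochondrially encoded genes out of the total. Over the 6 removals of a library it ran from 0 to 4, and the count over all genes from 116 to 1539; removals also leave fewer samples. With control replicate 1 left out and mitochondrially encoded genes out of the total, 1634 of all genes passed (1039 higher, 595 lower) and 4 of the 10. The cause of these moves was not tested.

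Of the genes called over all tested genes, 76.7% were higher as reported, 54.9% with median-of-ratios scaling (487 higher, 400 lower), 64.5% with upper-quartile scaling (619 and 340) and 60.5% with mitochondrial genes out of the total (432 and 282). With the replicate number as a block 774 genes passed and 0 of the 10, with adjusted p of 0.0544 for Lamc1, 0.0679 for Lamb1 and 0.0794 for Lama4. Same-numbered libraries deviated from their group means with correlations of 0.245, -0.073 and 0.038 across genes, and not every library correlated best with its own number. With 3 libraries per group these correlations cannot show whether same-numbered samples were paired, and the labels do not say.

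Over the 6 removals the log2 fold change ran from -0.061 to 0.049 for Nid1 and from -0.0042 to 0.26 for Hspg2, so their sign is not set. Differences in share, in percentage points, ran from -3.42 to -1.91 for Lama1, -0.227 to 0.0392 for Lama2, 0.977 to 2.34 for Lama4 and 0.0764 to 2.67 for Lama5. Differences in log2 ratio ran from -0.53 to -0.22 for Nid1 over Nid2, -0.10 to 0.20 for Hspg2 over Agrn, -0.12 to -0.03 for Lamb1 over Lamc1 and -0.28 to -0.08 for summed alpha chains over Lamc1. Ratios of TPM + 1 gave the same signs.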
